A study of Capra hircus with 13 samples.

Results

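*ARGFX*, *DUXA* and *LEUTX*, 3 homeobox genes of the PRD-like class, were followed through goat oocytes and early embryos. They were chosen by symbol, from the FPKM values of these same libraries over the stages, their spread between the 8-cell libraries and their values after *YTHDF2* siRNA, and are 3 of the 18138 gene names listed for all 13 libraries. FPKM is the number of fragments of a gene scaled to the length of the gene and to the fragments of the library, so that levels can be compared between genes. Because the choice used these values, the levels of the 3 genes are given as a description, with no test. In the NCBI gene table for the assembly ARS1.2 all 3 are protein-coding genes, with the gene IDs 102172199 (*ARGFX*), 108638101 (*DUXA*) and 106503102 (*LEUTX*). The deposited values were made on the assembly ARS1, so no coordinates are given.

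PRD-like homeobox genes encode transcription factors that bind DNA through a homeodomain related to that of the Paired family. *ARGFX*, *DUXA* and *LEUTX* are known from human embryos as genes that are switched on when the embryo starts its own transcription and are quiet in most adult tissues. *DUXA* encodes a protein with more than one homeodomain and is related to *DUX4*, an activator of early embryonic genes, and *LEUTX* encodes an activator of transcription in human embryos. YTHDF2 is a reader of the RNA mark N6-methyladenosine and promotes the decay of marked mRNAs.

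The libraries were made by Smart-seq2, which copies polyadenylated RNA from small samples. Untreated material gave 3 libraries each of MII oocytes (mature oocytes arrested before fertilization), 4-cell embryos and 8-cell embryos, and was taken by the authors from 2 previous studies. Embryos injected as zygotes 8 h after in vitro fertilization and collected at the 8-cell stage gave 2 libraries with negative control (NC) siRNA and 2 with a mixture of 2 siRNAs against *YTHDF2*, each from pooled embryos. The deposited titles call the 2 control libraries WT. They are read as NC siRNA because the study names that siRNA as the control of its knockdown experiments. The sources do not state which previous study each untreated library came from, so a difference between studies and a difference between stages cannot be told apart. Injected and untreated libraries were normalized apart and are set side by side only.

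The agent of the knockdown is shown by the antisense strands of its 2 siRNAs, as the study's siRNA table gives them, 5′ to 3′. Capitals mark the seed (bases 2 to 8), and the 2 seeds differ.
s28148: uUGCUAGCaauaucagcccaa
s28147: uGGUCUAUaguauucaugcca

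The labels were checked first on *YTHDF2* and on marker genes. *YTHDF2* was at 111.5 and 158.6 FPKM in the NC libraries and at 8.07 and 4.47 in the YTHDF2 siRNA libraries (log2 fold change −4.25, SE 0.43, limma adjusted p = 0.000367). Relative to the first 8-cell library, the library totals behind the FPKM of the untreated samples ranged from 0.989 to 1.57, and the depth of the injected libraries is unknown. The MII libraries had the largest totals (1.26 to 1.57). Fragments on the genes with recovered counts were 9571614 to 11283051 in MII, against 12223822 in 8-cell replicate 1. The summed FPKM of the 9 listed oocyte markers was 2067 to 3060 in MII, 2417 to 3983 in 4-cell and 2978 to 4813 in 8-cell libraries, and none of the 9 was at 0. It was 896.5 and 544.6 in the NC libraries and 1147 and 2058 in the YTHDF2 siRNA libraries. The 8 cumulus cell markers together were at 41.7 to 60.0 FPKM in MII, 53.6 to 66.4 in 4-cell and 87.9 to 135.6 in 8-cell libraries, at 40.7 and 36.8 in the NC and at 71.5 and 69.4 in the YTHDF2 siRNA libraries, and their part in the results below was not tested. The 3 listed sperm markers summed to 0.844 FPKM or less in the untreated libraries and to 4.65 to 26.6 in the injected ones, and the 4 trophectoderm markers to 2.25 to 7.78 and to 39.0 to 97.8. The part of these markers in the levels of injected beside untreated embryos was not tested either. Replicate 1 of the 8-cell libraries stood apart, with a correlation of log2 values across genes of 0.854 to replicate 2 and 0.898 to replicate 3, while replicates 2 and 3 were at 0.966 and the 4-cell libraries at 0.964 to 0.978 among themselves. It also held the highest sums of oocyte markers (4813 FPKM) and of cumulus cell markers (135.6 FPKM) among the 8-cell libraries, and the part of either was not tested.

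*ARGFX* was at the limit of detection in MII oocytes and abundant at the 8-cell stage. In MII oocytes it was at 0.0720 FPKM in replicate 1, which is 3 fragments, and was listed at 0 in the other two. It was at 22.4, 29.5 and 15.5 FPKM in the 4-cell libraries and at 52.8, 497 and 105 FPKM in the 8-cell libraries. The groups did not overlap at any stage. Of all 9090 genes tested, 37.8% had every 4-cell library above every MII library, 36.4% every 8-cell above every MII library and 11.6% every 8-cell above every 4-cell library, and since the genes were chosen on these stages nothing is read from it. For *ARGFX* the lowest 8-cell library was 1.79 times the highest 4-cell library. The mean rose from 0.0240 ± 0.0416 FPKM (SD, n = 3) in MII through 22.5 ± 7.03 to 218 ± 243 at the 8-cell stage, so that the SD at the 8-cell stage was larger than the mean. Because 3 fragments stand behind the MII level, the fragment rate at the 4-cell stage was 1015 times that of MII with a 95% exact interval of 347 to 4926, and the interval covers counting error only.

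*DUXA* had low levels in all MII libraries and stayed the lowest of the 3 genes in all embryos. It was at 0.880, 0.911 and 0.331 FPKM in MII, from 15, 16 and 7 fragments. It was at 8.10, 13.7 and 5.04 FPKM in the 4-cell libraries and at 22.9, 297 and 46.1 FPKM in the 8-cell libraries. The stages did not overlap for *DUXA* either, and the lowest 8-cell library stood 1.67 times above the highest 4-cell library. Its mean rose 12.6-fold from MII (0.707 ± 0.327 FPKM) to the 4-cell stage (8.94 ± 4.38) and 13.6-fold from there to the 8-cell stage (122 ± 152, n = 3 each).

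*LEUTX* had the highest level of the 3 genes before fertilization. Its levels were 9.44, 13.2 and 11.7 FPKM in MII oocytes, from 157, 227 and 241 fragments. They were 41.3, 83.4 and 33.6 FPKM in the 4-cell libraries and 253, 577 and 372 FPKM in the 8-cell libraries. The lowest library of a later stage was above the highest of the earlier one, by 2.54 times from MII to 4-cell and 3.04 times from 4-cell to 8-cell. The mean rose from 11.5 ± 1.91 FPKM through 52.8 ± 26.8 to 401 ± 164 (n = 3 each), a ratio of 35.0 between the ends. By rank among the names of a library, *LEUTX* stood at places 227, 87 and 142 from the top in the 8-cell libraries, against 1392, 108 and 655 for *ARGFX* and 2743, 212 and 1454 for *DUXA*.

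**Figure D1:**
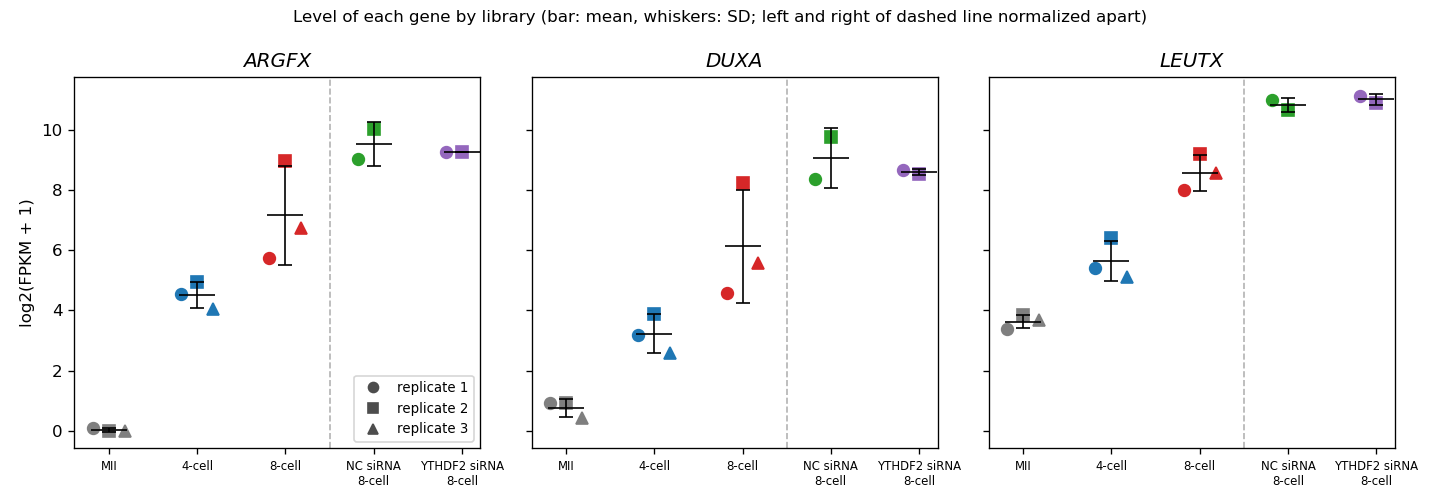
Level of each gene as log2(FPKM + 1) in each library by group, with the group mean as a bar and the SD as whiskers; the dashed line parts the untreated from the injected libraries, which were normalized apart. The 3 untreated stages do not overlap for any of the genes, while NC and YTHDF2 siRNA libraries do, for example *LEUTX* at 2021 and 1599.8 FPKM against 2232 and 1879.

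On log2(FPKM + 1), the difference between 8-cell and MII libraries was 7.11 for *ARGFX*, 5.37 for *DUXA* and 4.94 for *LEUTX*. Adding 1 before the logarithm shrinks the changes of genes that start low, so these differences understate *ARGFX* and *DUXA* the most. The step from 4-cell to 8-cell was 2.64, 2.90 and 2.93 in the same order. Without 8-cell replicate 1 that step was 3.34, 3.67 and 3.22, and without 8-cell replicate 2 it was 1.73, 1.85 and 2.63, so that *LEUTX* then stood above the other two. The step from MII to 4-cell was 4.48, 2.47 and 2.01, and was larger the lower the MII level of the gene. With bulk RNA, fewer cells of a type and less RNA per cell cannot be told apart.

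The order of levels was the same in every embryo. *LEUTX* was above *ARGFX* and *ARGFX* above *DUXA* in 10 of 10 embryo libraries, whereas in the MII oocytes *DUXA* was above *ARGFX* in each library. The ranges of neighbours in that order lay apart in the 4-cell and the YTHDF2 siRNA libraries. They overlapped in the untreated 8-cell libraries, where *ARGFX* varied 9.40-fold between libraries, and in the NC libraries for *ARGFX* and *DUXA*.

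The spread between the 8-cell libraries was a feature shared by *ARGFX* and *DUXA*. The SD of log2(FPKM + 1) over the 3 libraries was 1.64 for *ARGFX* and 1.89 for *DUXA*, and 0.59 for *LEUTX*. Among the 4147 genes that averaged 10 FPKM or more in the 8-cell libraries the median SD was 0.32. This spread was among the values the genes were chosen on, so its place among other genes is a description only. All 3 genes were highest in 8-cell replicate 2 and lowest in replicate 1. This order was common, since 1049 of the 4147 genes (25.3%) had it and 1172 (28.3%) had the opposite one. In the 4-cell libraries all 3 genes were highest in replicate 2 and lowest in replicate 3, with a highest-to-lowest ratio of 1.91 for *ARGFX*, 2.72 for *DUXA* and 2.48 for *LEUTX*.

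**Figure D2:**
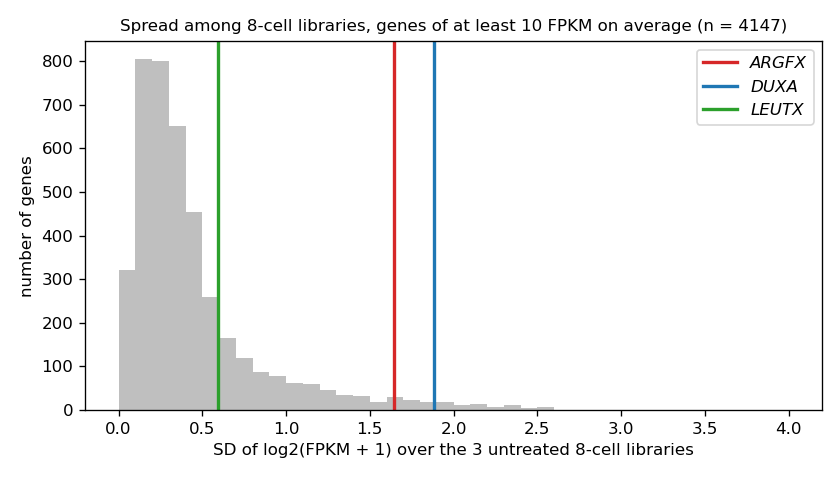
Histogram of the SD of log2(FPKM + 1) over the 3 untreated 8-cell libraries for 4147 genes, the vertical axis giving the number of genes and the lines marking the 3 homeobox genes. *ARGFX* is at 1.64, *DUXA* at 1.89 and *LEUTX* at 0.59, with the median of the genes at 0.32; the spread was among the values the 3 genes were chosen on.

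Within a library, the ratios of *LEUTX* to the other genes varied most between the 8-cell libraries. *LEUTX* was 4.79, 1.16 and 3.53 times *ARGFX* in 8-cell replicates 1, 2 and 3, and 1.84, 2.82 and 2.17 times *ARGFX* in the 4-cell libraries. It was 11.1, 1.94 and 8.06 times *DUXA* in the 8-cell libraries and 5.10, 6.09 and 6.68 times in the 4-cell libraries. In the 8-cell group the library with the most *ARGFX* and *DUXA*, replicate 2, had the smallest ratios of *LEUTX* to either gene. In the 4-cell group this was not so, since replicate 2, again highest in all 3 genes, had the largest ratio of *LEUTX* to *ARGFX*. Each ratio holds the level of *ARGFX* or *DUXA* as its own denominator. *ARGFX* and *DUXA* kept closer together, at ratios of 2.31, 1.67 and 2.28 in the 8-cell and 2.77, 2.16 and 3.07 in the 4-cell libraries.

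**Figure D3:**
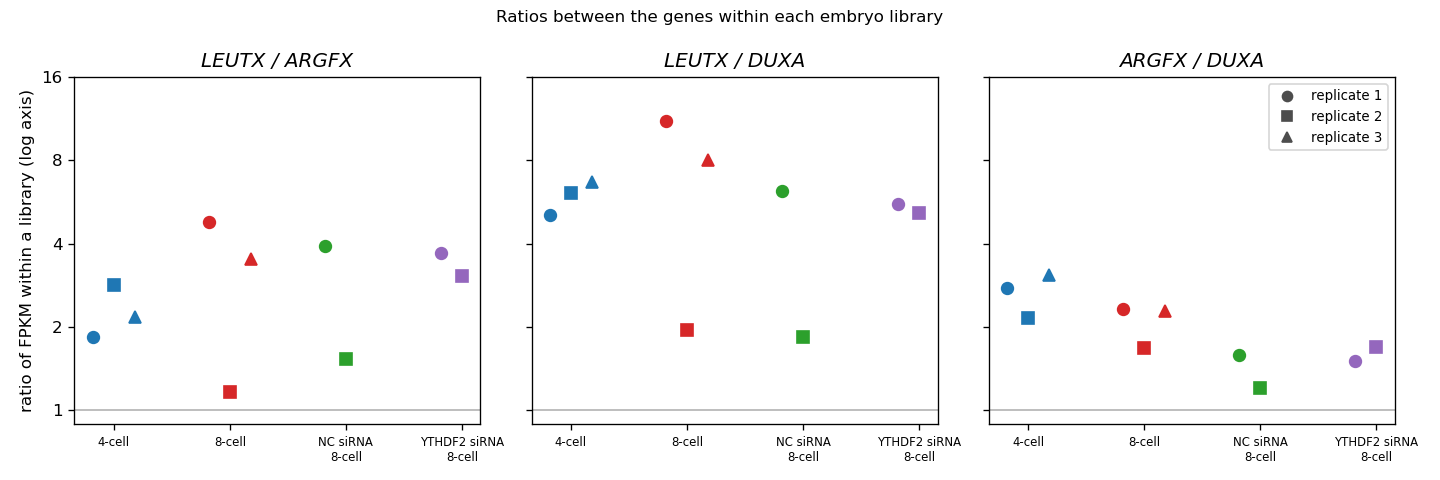
Ratio of FPKM between each pair of genes within each embryo library, on a log axis, with a symbol for each replicate. The lowest *LEUTX* to *ARGFX* ratios are those of 8-cell replicate 2 (1.16) and NC replicate 2 (1.53), and all ratios are above 1.

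After injection, the question is whether the loss of *YTHDF2* changed the level reached at the 8-cell stage. *ARGFX* was at 514 and 1043 FPKM in the NC libraries and at 605 and 613 FPKM in the YTHDF2 siRNA libraries. *DUXA* was at 326 and 867 FPKM with NC siRNA and at 403 and 364 FPKM with YTHDF2 siRNA. *LEUTX* was at 2021 and 1599.8 FPKM with NC siRNA and at 2232 and 1879 FPKM with YTHDF2 siRNA. For each gene the ranges of both groups overlapped, whereas 30.3% of all 11004 genes tested had both YTHDF2 siRNA libraries above both NC libraries and 30.7% had both below. For *ARGFX* and *DUXA* both YTHDF2 siRNA libraries lay between the NC libraries. The mean difference in log2(FPKM + 1) was −0.26 for *ARGFX*, −0.47 for *DUXA* and 0.19 for *LEUTX*. Taken library by library, the differences ran from −0.78 to 0.25 for *ARGFX*, from −1.25 to 0.30 for *DUXA* and from −0.11 to 0.48 for *LEUTX*. Without NC replicate 2 the mean difference was 0.25 for *ARGFX* and 0.23 for *DUXA*, so its sign rests on that library. The 2 NC libraries differed 2.03-fold in *ARGFX* and 2.66-fold in *DUXA*, and the 2 YTHDF2 siRNA libraries 1.01- and 1.11-fold.

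NC replicate 2, like untreated 8-cell replicate 2, had the lowest ratios of *LEUTX* to the other genes in its group. *LEUTX* was 3.93 and 1.53 times *ARGFX* in the NC libraries and 3.69 and 3.07 times in the YTHDF2 siRNA libraries. It was 6.20 and 1.84 times *DUXA* in the NC and 5.54 and 5.17 times in the YTHDF2 siRNA libraries. *ARGFX* was 1.58 and 1.20 times *DUXA* in the NC and 1.50 and 1.69 times in the YTHDF2 siRNA libraries. The NC library with more *ARGFX* and *DUXA* had less *LEUTX*, which was not so in the untreated 8-cell libraries, where the 3 genes had 1 order. *LEUTX* was among the most abundant transcripts of the injected embryos, at places 26 and 41 of 27121 names in the NC libraries and 32 and 34 in the YTHDF2 siRNA libraries. It made up 0.352% and 0.257% of the summed FPKM with NC siRNA and 0.394% and 0.314% with YTHDF2 siRNA, against 0.0656%, 0.139% and 0.0953% in the untreated 8-cell libraries.

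The genes whose pattern over the 9 untreated libraries was most like that of each member were named by the root mean square (RMS) difference in log2(FPKM + 1), after each gene was centred on its own mean, among 9089 other genes. The nearest to *ARGFX* were *LOC102180074* (RMS difference 0.53), *LOC102173807* (0.55), *LOC102172469* (0.65), *LOC102190105* (0.67) and *LOC102176812* (0.72), of which *LOC102173807*, *LOC102172469* and *LOC102190105* are annotated as pseudogenes. *DUXA* was 14th (0.91) and *LEUTX* 29th (1.22) on that ranking. Nearest to *DUXA* were *LOC108638027* (0.68), *LEUTX* (0.68), *LOC102181365* (0.70), *LOC102177081* (0.72) and *ZCCHC10* (0.76). *LEUTX* was thus the second nearest gene to *DUXA*, while *DUXA* was 13th and *ARGFX* 150th nearest to *LEUTX*. The nearest to *LEUTX* were *LOC102179033* (0.33), *LOC102179309* (0.35), *LOC102182181* (0.50), *LOC102178442* (0.50) and *LOC102181365* (0.52). Their means were 0 to 0.141 FPKM in MII and 22.4 to 66.2 FPKM in 8-cell libraries, against 11.5 and 401 FPKM for *LEUTX*. Adding 1 before the logarithm shrinks the rise of genes that start low, so likeness on this scale is not likeness in fold or in MII level. *LOC102179033* and *LOC102179309* are next to each other in the gene order of ARS1.2, as are *LOC102176812* and *LOC102177081*. Only fragments with 1 mapping location were counted, so fragments shared by near-identical copies would be left out. Whether these genes are near-identical was not tested. *ZCCHC10*, the only one of these genes other than *LEUTX* with a name rather than a locus number, shared the peak in 8-cell replicate 2, with 11.6, 141.5 and 14.6 FPKM in the 8-cell libraries. After injection it was at 129.8 and 256.2 FPKM with NC siRNA and at 84.0 and 83.4 with YTHDF2 siRNA.

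The protein-coding genes next to each member in ARS1.2 were looked at by position, a choice made after the members' values were seen. *ZIM3*, a zinc finger gene beside *DUXA*, was at 0.0944, 0.0367 and 0.0760 FPKM in MII, at 0.742, 8.08 and 4.05 FPKM in the 4-cell libraries and at 40.8, 214.1 and 53.6 FPKM in the 8-cell libraries. It too was highest in 8-cell replicate 2 and lowest in replicate 1. *ZIM3* rose 6.21 on the log2 scale from MII to the 8-cell stage (SE 0.68, limma adjusted p = 0.000206) and 4.19 from the 4-cell to the 8-cell stage (SE 0.68, limma adjusted p = 0.00943). From MII to the 4-cell stage it rose 2.01 (SE 0.68, limma adjusted p = 0.0497), a call that was lost without 4-cell replicate 2, where the rise was 1.47. In the injected embryos it was at 164.2 and 476.0 FPKM with NC siRNA and at 289.3 and 119.8 FPKM with YTHDF2 siRNA, and the groups overlapped (log2 fold change −0.58, SE 0.52, limma adjusted p = 0.466). With 1 library left out the log2 fold change ran from −1.35 to 0.18.

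**Figure D4:**
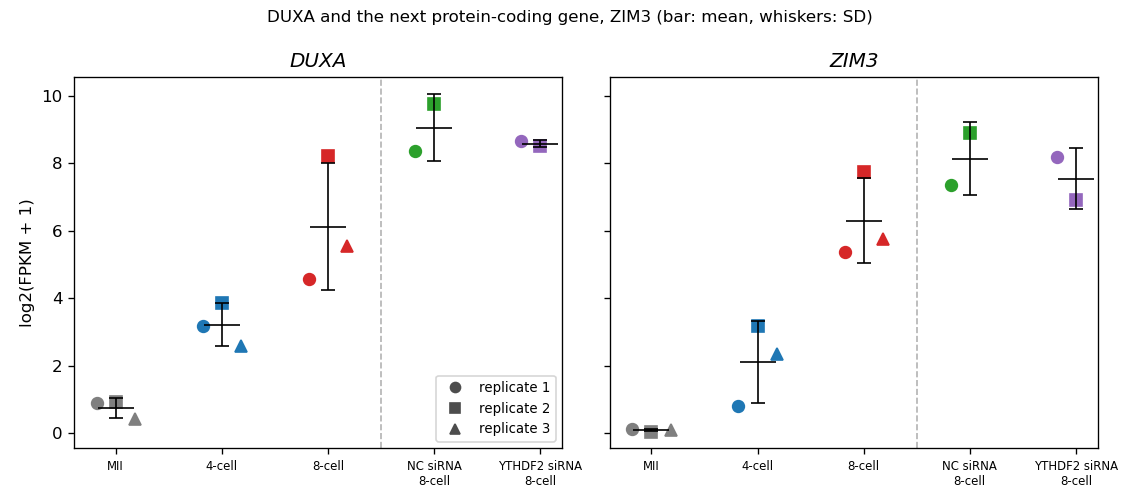
Level of *DUXA* and of the adjacent gene *ZIM3* as log2(FPKM + 1) in each library, with the mean as a bar and the SD as whiskers, and a dashed line between libraries normalized apart. Both genes are lowest in MII and highest in replicate 2 among the untreated 8-cell libraries, at 297 FPKM for *DUXA* and 214.1 FPKM for *ZIM3*.

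None of the other neighbours that were tested was called higher at the 8-cell stage. *LOC108638122*, on the other side of *DUXA*, was at 0.710, 1.89 and 0.723 FPKM in MII and at 0.907, 0.662 and 1.69 FPKM in the 8-cell libraries. *FBXO40*, whose annotation overlaps that of *ARGFX*, was at 14.6, 16.8 and 13.4 FPKM in MII and at 30.2, 20.8 and 27.9 FPKM in the 8-cell libraries, a log2 fold change of 0.77 that did not reach the 2-fold rule (limma adjusted p = 0.0136). *FBXO40* was lowest in the 8-cell library in which *ARGFX* was highest. Smart-seq2 does not mark strand, so fragments from overlapping parts of the 2 genes cannot be told apart. *DYRK1B*, next to *LEUTX*, was at 0.960 FPKM or less in all untreated libraries, and *LOC102184749*, on the other side of *LEUTX*, was listed at 0 in all injected libraries. *POLQ*, on the other side of *ARGFX*, was at 4.73, 4.37 and 3.70 FPKM in MII and at 2.19, 2.04 and 1.74 FPKM in the 8-cell libraries. It was at 5.10 and 7.06 FPKM with NC siRNA and at 2.98 and 1.40 with YTHDF2 siRNA, and was called lower there (log2 fold change −1.18, SE 0.44, limma adjusted p = 0.104), a call lost without NC replicate 2 (−0.98) or YTHDF2 siRNA replicate 2 (−0.82).

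To place the 3 genes in their class, 48 other PRD-class homeobox genes were taken by symbol, of which 32 were listed for all untreated and 37 for all injected libraries, 11 were listed nowhere under these symbols, and 22 were above 1 FPKM in any library. A gene was called where log2(FPKM + 1) changed by over 1, a 2-fold change on that scale, with an unadjusted limma p below 0.05. These are the thresholds of the study, which set them on counts in DESeq2, and on log2(FPKM + 1) the fold is harder to reach for low genes. Genes were tested if they averaged 1 FPKM or more over all libraries of the fit. A gene low in MII and 4-cell libraries thus entered only through its 8-cell level, which favours a rise at that stage. Among the genes named, *OTX1* entered in this way. From MII to the 4-cell stage 3 of 13 tested genes rose and 2 fell, where 16.7% of all 9090 genes tested were called higher and 6.06% lower. *OTX2*, a factor of head development, was at 0.475, 0.376 and 0.282 FPKM in MII and at 2.66, 5.89 and 7.49 FPKM in the 4-cell libraries (log2 fold change 2.12, SE 0.44, limma adjusted p = 0.00586). *ALX1*, a craniofacial factor, rose by 1.86 (SE 0.27, limma adjusted p = 0.0011). *UNCX*, a factor of the axial skeleton, fell from 22.7, 13.01 and 18.0 FPKM in MII to 1.31, 0.641 and 0.832 FPKM (log2 fold change −3.28, SE 0.49, limma adjusted p = 0.00136). *PAX6*, an eye factor, rose by 1.03 (limma adjusted p = 0.052), a call lost without MII replicate 1 (0.997), 4-cell replicate 2 (0.85) or 4-cell replicate 3 (0.77) and under both other scalings (0.88 and 0.78). *SHOX2*, a limb factor, had a log2 fold change of −1.50 (limma adjusted p = 0.0635), lost without MII replicate 3 (−1.17) or 4-cell replicate 3 (−1.26).

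From MII to the 8-cell stage 8 of the 13 genes rose and 1 fell, where 19.8% of all genes were called higher and 8.14% lower. Without 8-cell replicate 1, which stood apart, 6 rose and 3 fell, the falls being *UNCX* (−3.45), *SHOX2* (−1.30) and *PHOX2A* (−1.10). *OTX2* reached 13.3, 31.4 and 9.63 FPKM (log2 fold change 3.63, SE 0.44, limma adjusted p = 0.000312). It was highest in 8-cell replicate 2 and lowest in replicate 3. *PAX6* (2.19), *ALX1* (1.99) and *HOPX* (1.58) also rose, with limma adjusted p from 0.000546 to 0.00288, and *UNCX* stayed below MII (−2.81, limma adjusted p = 0.00208). *SEBOX*, at 16.2, 0.663 and 3.37 FPKM, and *OTX1*, at 8.05, 0.982 and 0.783 FPKM, had log2 fold changes of 1.85 and 1.27 (limma adjusted p = 0.0655 and 0.0914) and were highest in 8-cell replicate 1. The call of *SEBOX* was lost without MII replicate 1 (1.78), MII replicate 3 (1.71) or 8-cell replicate 1 (0.96), and that of *OTX1* was kept in 2 of the 8 fits that left out 1 library, and without 8-cell replicate 1 *OTX1* was below the filter of 1 FPKM and was not tested. The call of *OTX1* was also lost when the libraries were scaled to a common sum (1.14).

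Between the 4- and 8-cell stage 5 of the 13 genes rose and 0 fell, where 4.55% of all genes were called higher and 4.28% lower. Without 4-cell replicate 1 the rises were 2. In limma, 6 of the 13 had an unadjusted p under 0.05. *OTX2* (1.51, limma adjusted p = 0.0645), *OTX1* (1.48, limma adjusted p = 0.129) and *PAX6* (1.16, limma adjusted p = 0.0759) were among those that rose. *PAX6* lost its call without 4-cell replicate 1 (0.73), and *OTX1* without 4-cell replicate 1 or 3 (1.46 in both). The median log2 fold change of the 13 genes was 0.86, against 0.07 over all genes tested. In the 8-cell libraries 8 of the 13 genes were highest in replicate 1 and 2 in replicate 2, whereas *ARGFX*, *DUXA* and *LEUTX* were all lowest in replicate 1. Of all 9090 genes tested 44.9% were highest and 35.7% lowest in replicate 1, and 30.1% were highest in replicate 2.

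With *YTHDF2* siRNA 4 of 16 tested PRD-class genes fell and 1 rose, where 15.3% of all 11004 genes tested were called lower and 9.48% higher. Without NC replicate 1, 3 fell and 3 rose. *OTX2* was at 385.7 and 471.6 FPKM with NC siRNA and at 160.7 and 154.4 with YTHDF2 siRNA (log2 fold change −1.43, SE 0.37, limma adjusted p = 0.0322). *OTX2* was thus lower in both YTHDF2 siRNA libraries than in both NC libraries, as were 30.7% of all genes tested. The groups of *ARGFX*, *DUXA* and *LEUTX* overlapped, but these genes were chosen on these values and not tested, so no contrast is read from it. *GSC* (−1.14, limma adjusted p = 0.106), *PAX6* (−1.50, limma adjusted p = 0.102) and *NOBOX*, an oocyte factor (1.30, limma adjusted p = 0.0654), were called by the unadjusted rule. *GSC* lost its call without NC replicate 1 (−0.96) or YTHDF2 siRNA replicate 2 (−0.89), *PAX6* without NC replicate 1 (−0.48, and −2.51 without NC replicate 2) and *NOBOX* without YTHDF2 siRNA replicate 1 (1.19). The rise of *NOBOX* stands beside the higher sum of the oocyte markers in the YTHDF2 siRNA libraries, and the part of these markers in it was not tested.

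**Figure D5:**
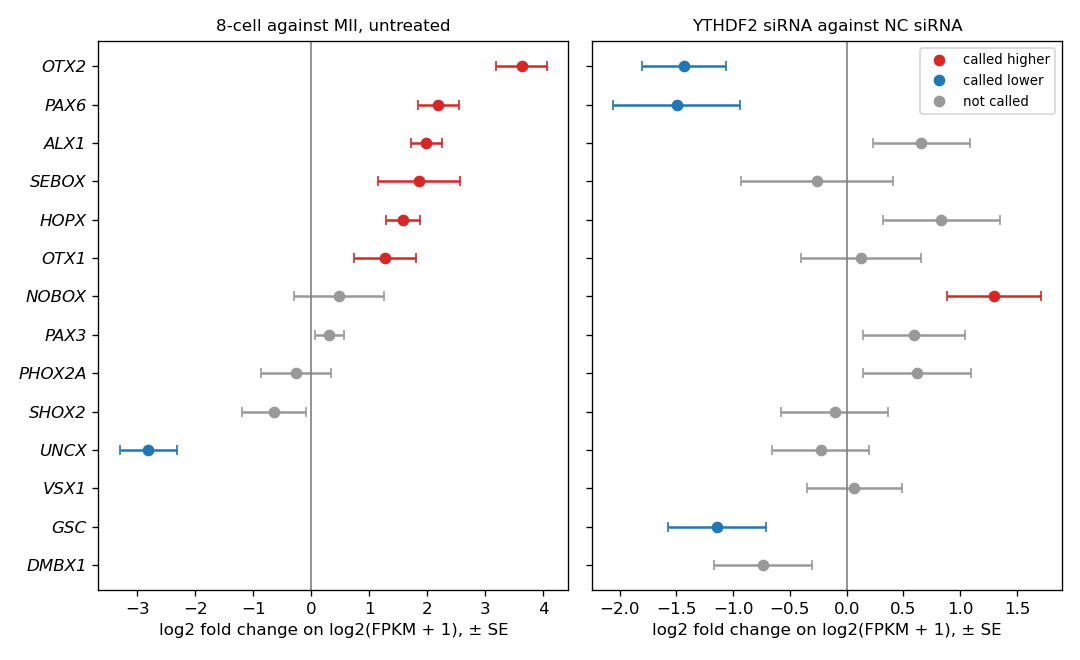
Log2 fold change on log2(FPKM + 1), with its SE, of other PRD-class homeobox genes tested, at the 8-cell stage against MII on the left and for YTHDF2 siRNA against NC siRNA on the right (the horizontal ranges differ). Red points were called higher, blue lower and grey were not called; *OTX2* is at 3.63 on the left and at −1.43 on the right.

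Other class members were low. *PAX3*, *PHOX2A*, *VSX1*, *DRGX*, *DMBX1*, *HESX1*, *MIXL1*, *PRRX1* and *PITX1* had their highest values between 1.27 and 7.97 FPKM. *PAX3* and *PHOX2A* were tested in all comparisons and *VSX1* and *DMBX1* in the knockdown only, with no call, and the other genes were too low to be tested. The highest untreated 8-cell level of any gene of the list, 39.3 FPKM for *ALX1*, was below the level of *ARGFX* and *LEUTX* in every 8-cell library.

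A list of 36 genes known from human or bovine embryos as switched on at genome activation, or as targets of *DUX4*, was set beside them, of which 19 were listed for the untreated libraries and 16 nowhere under these symbols. From MII to the 4-cell stage 0 of 14 tested genes passed the rule in limma, and 1 had an unadjusted p under 0.05. All genes together were called higher in 16.7% and lower in 6.06%. With a pseudocount of 0.1 in place of 1, 4 of the list were called, all higher, and without MII replicate 3, 1 was called, lower. Without a call, 5 of the 14 (*KLF5*, *KLF17*, *SLC34A2*, *ZNF296* and *NANOG*) had every 4-cell library above every MII library, as *ARGFX*, *DUXA* and *LEUTX* did, and 2 had every 4-cell library below, beside the 37.8% and 14.1% of all genes that lay apart in this way. At the 8-cell stage 8 of the 14 were called higher than MII and 0 lower in limma, with 8 at an unadjusted p under 0.05, beside the 19.8% and 8.14% of all genes. Of those called, *KLF4*, *KLF17*, *ZNF296*, *NANOG* and *TFAP2C* passed the filter on the mean only through their 8-cell level, which favours a rise. *TFAP2C*, a factor of trophectoderm and germ cells, went from 0.0399 FPKM or less in MII to 10.5, 23.2 and 4.70 FPKM (log2 fold change 3.53, SE 0.56, limma adjusted p = 0.00125). *KLF4* (1.95) and *KLF5* (1.34), Krüppel-like pluripotency factors, rose with limma adjusted p of 0.00154 and 0.002. *KLF17*, *ZNF296* and *NANOG* were listed at 0 in all MII libraries. *KLF17*, a factor of early human embryos, was at 5.52, 8.89 and 1.96 FPKM in the 8-cell libraries (limma adjusted p = 0.00153), and *NANOG*, a pluripotency factor, at 8.34, 17.3 and 2.76 FPKM (limma adjusted p = 0.00251). *ZNF296* was at 22.8, 1.99 and 1.92 FPKM (limma adjusted p = 0.0162). It fell below the filter of 1 FPKM when 8-cell replicate 1 was left out, and was then not tested. *DPPA4* was at 5.16, 123.6 and 4.06 FPKM (log2 fold change 3.45, SE 1.08, limma adjusted p = 0.0312), with a log2 fold change of 1.96 without 8-cell replicate 2, and *DPPA2* rose 1.55 (SE 0.54, limma adjusted p = 0.0468), a call lost without 8-cell replicate 2 (1.05).

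Between the 4- and 8-cell stage 8 of the 14 genes were called higher and 0 lower, and 9 had an unadjusted limma p under 0.05, beside 4.55% and 4.28% of all genes. The limit set by the filter holds for this count too, and listed genes that stayed low were not tested. Without 4-cell replicate 1 or 3 the calls were 5, and without 8-cell replicate 2 they were 6 higher and 1 lower, *EIF1AX*, a translation factor (−1.01). *KLF4* (1.84, limma adjusted p = 0.0118), *KLF17* (2.20, limma adjusted p = 0.0164), *TFAP2C* (2.64, limma adjusted p = 0.0247) and *NANOG* (2.26, limma adjusted p = 0.0414) had the smallest adjusted p. *ZNF296* (2.15) and *DPPA2* (1.50), *DPPA4* (2.46) and *POU5F1* (1.44) had limma adjusted p of 0.0896, 0.121, 0.2 and 0.153. *DPPA2* lost its call without 4-cell replicate 1 (1.02), 4-cell replicate 3 (1.47) or 8-cell replicate 2 (1.003), and *DPPA4* and *POU5F1* kept theirs in 3 and 5 of 9 fits that left out 1 library (0.97 for *DPPA4* without 8-cell replicate 2). *POU5F1*, the pluripotency factor OCT4, was at 34.9, 5.27 and 6.15 FPKM in the 8-cell libraries and had a log2 fold change of 0.64 without replicate 1. Of the 14 genes 9 were highest in 8-cell replicate 2, as *ARGFX*, *DUXA* and *LEUTX* were, and 10 were lowest in replicate 3, where the 3 PRD-like genes were intermediate. Of all 9090 genes tested 30.1% were highest in replicate 2 and 23.0% lowest in replicate 3.

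With *YTHDF2* siRNA 2 of 15 tested activation-linked genes fell and 0 rose, and 2 had an unadjusted limma p under 0.05. The 2 falls are near the 15.3% of all genes called lower, and 9.48% were called higher. With 1 library left out, 3 genes were called lower without NC replicate 1 and 4 without NC replicate 2 or YTHDF2 siRNA replicate 1. Without YTHDF2 siRNA replicate 2, 2 were called lower and 1 higher. *KLF5* was at 37.8 and 33.6 FPKM with NC siRNA and at 12.6 and 11.6 with YTHDF2 siRNA (log2 fold change −1.49, SE 0.41, limma adjusted p = 0.0397). *SLC34A2*, a phosphate transporter, was at 84.4 and 41.6 FPKM and at 20.4 and 6.25 FPKM (log2 fold change −2.27, SE 0.53, limma adjusted p = 0.0216), and its log2 fold change was −1.49 without YTHDF2 siRNA replicate 2. *KLF17* was at 291.7 and 394.8 FPKM with NC siRNA and at 239.2 and 267.2 FPKM with YTHDF2 siRNA, with no call. The list's median log2 fold change was −0.42, against 0.01 over all genes tested, and the values of *ARGFX*, *DUXA* and *LEUTX* given above lie to either side of 0.

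Scaling touches all comparisons with MII. Against MII, the median log2 fold change of all genes tested was 0.29 for 4-cell and 0.37 for 8-cell embryos, and 0.06 and 0.05 after median-ratio rescaling. Of the calls at the 4-cell stage against MII 73.4% were higher, against 50.7% after median-ratio rescaling and 34.4% with a common sum over the shared genes. At the 8-cell stage against MII the same shares were 70.9%, 49.1% and 46.5%, and between the 4- and 8-cell stages they were 51.6%, 45.3% and 64.0%. The differences of *ARGFX*, *DUXA* and *LEUTX* kept their direction between the stages under both scalings.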

How the data were processed

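RNA-seq values of 13 goat libraries were used. Reads were aligned by the authors with HISAT2 (goat assembly ARS1), those with 1 mapping location were counted per gene in HTSeq, and FPKM values were deposited; the injected values are rounded to 2 decimals. For the untreated libraries, fragments were recovered from the steps of low FPKM values (15881 of 16704 genes, whole numbers within 0.01). Log2(FPKM + 1) of genes averaging 1 FPKM or more entered limma (version 3.58.1, R 4.3.3, eBayes with trend), the 9 untreated libraries in 1 fit and the 4 injected in another, with Benjamini-Hochberg adjustment over all genes. On simulated data 97% (8-cell against 4-cell) and 92% (knockdown) of 200 genes above 10 FPKM changed by 2 on the log2 scale were called, and 1.76% and 2.81% of unchanged genes. FPKM are no counts, so no count test was run. Nothing states that the untreated replicates were collected separately, so p-values measure only the spread between these libraries. Of all names, 99.7% matched the ARS1.2 gene table. Named are the members, list genes called in a comparison, homeobox genes above 1 FPKM, the 5 nearest genes of each member and *YTHDF2*. The values of some list genes are not reported here, although the genes stay in the list counts. The members and lists were chosen with earlier results of these data known. Alternatives were another pseudocount, filter and scaling, left-out libraries, the adjusted p and a replicate block. Other steps used Python 3.11.15 with scipy 1.17.1, pandas 2.3.3, numpy 2.4.6 and, for plots, matplotlib 3.10.9.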

Additional observations from a re-analysis of the deposited data

How the results depend on the processing

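Of 214 recomputed values 194 lay within 1.5 times the reported count or within 1 SD between replicates of the reported difference, 18 moved further and 2 reversed. With an adjusted p in the call rule the PRD-class genes called were 3 at the 4-cell stage against MII, 2 between the 4- and 8-cell stage and 1 after knockdown, in place of 5 in each, and the activation-linked genes called between the 4- and 8-cell stage were 4 in place of 8. Leaving out 1 library each gave 3 to 6, 2 to 6 and 4 to 6 PRD-class genes in these comparisons (2 without 4-cell replicate 1). It gave 0 to 1, 5 to 8 and 3 to 4 activation-linked genes at the 4-cell stage against MII, between the 4- and 8-cell stage and after knockdown, in place of 0, 8 and 2. For activation-linked genes at the 4-cell stage against MII a pseudocount of 0.1 gave 4 calls, and median-ratio rescaling and a common sum over shared genes 1 each.

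A pseudocount of 0.1 gave differences of 7.51 and 10.20 for *ARGFX* at the 4- and 8-cell stage against MII and 3.47 for *DUXA* at the 4-cell stage, and a common sum gave 1.50 for *LEUTX* at the 4-cell stage against MII. The knockdown difference ranged from −0.78 to 0.25 for *ARGFX* and from −1.18 to 0.23 for *DUXA* with 1 library left out, both reversing without NC replicate 2. With 1 library left out, the lone sample of a group was assumed to vary like the others. Replicate numbers were not taken to pair the libraries. Deviations of same-numbered libraries correlated at −0.51 to 0.20 between untreated groups and at −0.15 between NC and YTHDF2 siRNA. Such deviations cancel out within each small group, so these values cannot exclude a pairing. The replicate block gave 5 PRD-class and 2 activation-linked calls after knockdown, as without it. A crossed pairing, chosen after seeing the data, also gave 5 and 2. The depth of the injected libraries is unknown.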
